A study of Homo sapiens with 6 samples.

Results

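The upstream regulators of the Hippo kinases were examined as a group of 49 genes, taken from a written list of pathway members whose rule uses no measured value, although the list was drawn up with earlier results of these data known. The list held adaptors of the core kinases, FAT and DCHS cadherins with their modulator FJX1, angiomotins, TAO and MAP4K kinases, NDR kinases, RASSF scaffolds, STRIPAK subunits, polarity proteins, Ajuba family LIM proteins, tankyrase and casein kinases. It left out the core kinases, the WWC scaffolds, YAP, TAZ and the TEAD factors. All 49 were found by Ensembl identifier among the 62754 genes of the deposited table, and 49 of 49 passed the filter on low counts.

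RNA was sequenced from 3 control libraries and 3 FAM60A-knockout libraries of HEK293 cells, a human embryonic kidney line, which the cell line label gives as HEK293T. FAM60A, whose current symbol is SINHCAF, belongs to the Sin3/HDAC corepressor. The knockout cells were made with CRISPR/Cas9 guides against 3 regions of FAM60A and selected with puromycin as a pool that the labels call homogenous, with no single clone described, and the labels describe the control cells by the word Control alone. Nothing in the labels says that libraries of a group came from separate cultures, so p-values measure the spread between these libraries, which may be technical.

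In the Hippo pathway, the STK3 and STK4 kinases activate the LATS kinases, which phosphorylate YAP and TAZ and hold them away from the TEAD factors in the nucleus. The regulators described here act above or beside that cascade. They carry signals from cell contacts, cell polarity, the cytoskeleton and phosphatases to the kinases.

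SINHCAF had 11028, 10165 and 12792 counts in the controls against 5684, 5793 and 5449 in the knockout, with a log2 fold change of -0.85 (SE 0.11, adjusted p = 0.00863, edgeR's quasi-likelihood test with Benjamini-Hochberg adjustment over 20992 genes). Total counts ran from 88361827 to 93346824 per library. Control replicate 3 stood apart from the other two controls, and values are given with and without it. The summed level of 8 HEK293 markers was 898, 914 and 659 CPM (counts per 1000000, on library sizes scaled by TMM) in the controls against 456 to 542 in the knockout, and LHX1, INA and NEFM were called lower. The summed level of 8 markers of MDA-MB-231, the study's other cell line, was 466 and 479 CPM in control replicates 1 and 2, 123 in control replicate 3 and 143 to 157 in the knockout, with IL6 under 0.1 CPM in every library. Most of that sum was ANXA1 (286 and 295 CPM, then 17, against 19.4 to 22.1), and the called marker of the list, PLAU, was higher in the knockout (log2 fold change 0.77, adjusted p = 0.0226, edgeR). For 6 fibroblast markers the sums were 24.0 to 29.4 and 25.5 to 25.8 CPM, with COL1A2 under 0.1 CPM, but its members went opposite ways: COL1A1 was called lower and DCN and LUM higher (log2 fold changes -0.66, 5.48 and 2.23, adjusted p = 0.0361, 0.00373 and 0.0463, edgeR). CD14, a monocyte marker, had 1.64 and 1.63 CPM in control replicates 1 and 2, 0.197 in control replicate 3 and 0.249 to 0.374 in the knockout, while PTPRC, CD3E and HBB were under 0.1 CPM. The part of these differences in the results on the regulators was not tested. In bulk RNA, fewer cells of a kind and less RNA per cell cannot be told apart.

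The regulators moved in both directions. The gene FJX1 and the cadherin genes FAT3, FAT4 and DCHS2 rose in the knockout, as did the polarity gene SCRIB, while AMOTL2, MOB1A, LLGL1 and MINK1 fell. At an adjusted p of at most 0.05, 9 of 49 regulators were called (18.4%), beside 16.6% of all genes tested, so the group as a whole was called at about the background rate. Lower calls were 4 (8.16%, background 8.67%) and higher calls 5 (10.2%, background 7.96%). The median log2 fold change, knockout over control, was 0.05 over the regulators and -0.01 over all genes tested. Calls past a log2 fold change of 1 in either direction numbered 4, namely FAT4, DCHS2, FJX1 and AMOTL2 (8.16%, background 7.06%). Levels of 28 regulators (57.1%) did not overlap between the groups, 14 lower (background 20.1%) and 14 higher in the knockout (background 21.5%), beside 41.6% of all genes tested.

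Without control replicate 3, 36 of 49 regulators were called (73.5%), 18 lower (background 33.2%) and 18 higher (background 32.4%), beside a background of 65.6% in all. Of these, 8 were past a log2 fold change of 1 in either direction (background 22.9%). The 36 included all 9 of the 6-library fit. Of the 49, 20 differed by at least 0.5 on the log2(CPM + 0.05) scale between the knockout and the mean of control replicates 1 and 2. In 13 of those 20 (65.0%), control replicate 3 lay past the midpoint towards the knockout level or beyond it, beside 64.7% of all genes with such a difference. In 3 (15%) it lay short of the midpoint, beside 21.4%. In the other 4 (20%) it lay on the far side of the other two controls, beside 13.9%.

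The number of regulators called moved with the analysis, as did the background. DESeq2 called 19 (background 26.8%), of which 13 were lower (background 15%). Library size without TMM scaling gave 14 (background 18.6%), 10 lower (12.7%) and 4 higher (5.88%). The 10 that DESeq2 added to the 9 were PTPN14, AMOT, MAP4K4, STK38, RASSF1, STRN4, SIKE1, CRB3, DLG1 and AJUBA. Elsewhere in the text, a gene is called or not by edgeR with 6 libraries unless another fit is named. With limma-voom the count was 7 (background 16.8%), 2 of them lower (7.72%). It was 7 without the filter on low counts (background 6.45%) and 9 with at least 10 counts in every library (background 17.4%). Without control replicate 1 it was 2 (background 4.89%) and without control replicate 2 it was 1 (background 3.71%). Without knockout replicate 1, 2 or 3 it was 1 each time, beside backgrounds of 0.763, 2.31 and 0.87%. A fit with the replicate number as a block called 1 (background 1.94%).

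**Figure D1:**
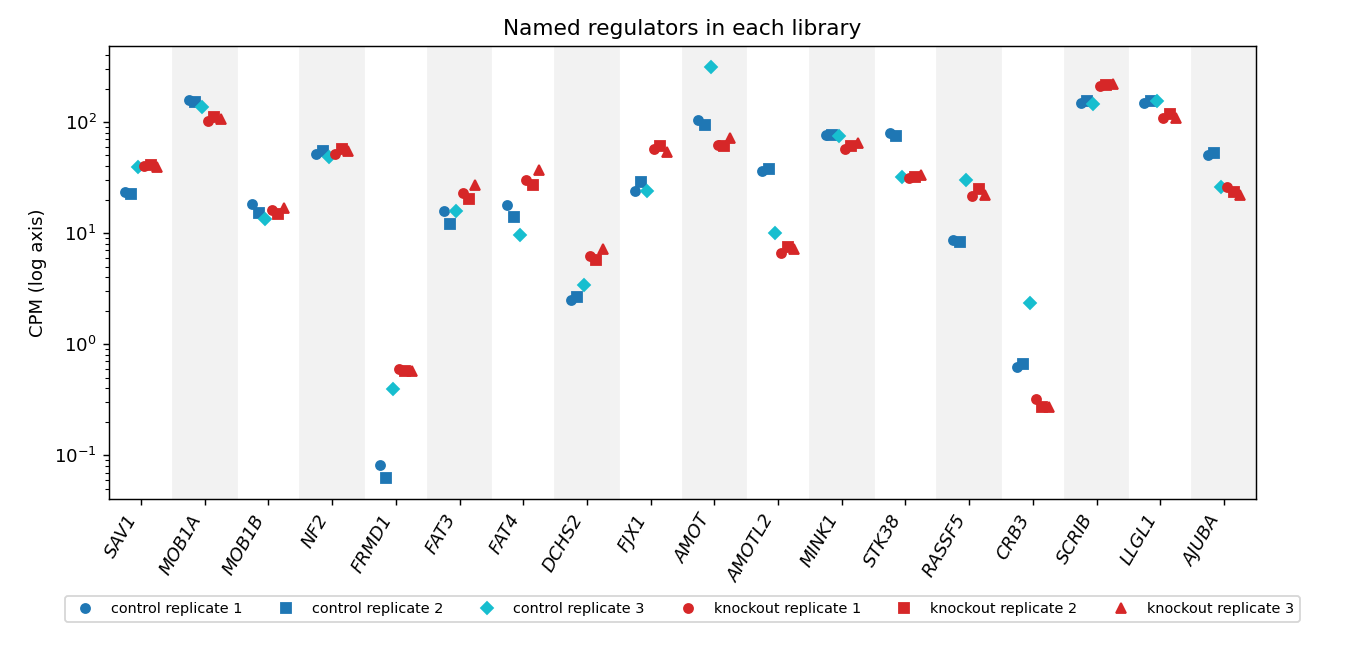
CPM of the 18 regulators described one by one (log axis), with a point for each library: control replicates 1 and 2 in blue, control replicate 3 in cyan, knockout in red. For FJX1 the controls lie between 23.9 and 28.6 CPM and the knockout libraries between 53.7 and 60.7, whereas for AMOT control replicate 3 (316 CPM) stands far above both other controls.

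In the edgeR fit of 6 libraries the cadherin branch had more calls than any other family here. Without control replicate 3 the branch had 5 calls among 7 genes and the TAO and MAP4K kinases 7 among 10, beside 65.6% of all genes tested. FAT and DCHS proteins are very large atypical cadherins that bind each other between neighbouring cells, and FJX1 is the relative of the fly Four-jointed kinase, which phosphorylates such cadherins. Of the 7 genes of the branch, 4 were called higher (background 7.96%) and 0 lower (background 8.67%), FJX1 being the 1 of the 4 whose call did not depend on the libraries kept. All 7 had a fitted change above 0, with a median log2 fold change of 0.69 beside -0.01 over all genes tested. In the knockout, each FAT and DCHS gene was highest in replicate 3 and lowest in replicate 2, and FJX1 was the reverse. The cadherin genes thus shared differences between libraries, and the 7 do not count as independent. Sequence just upstream of the start is shown for FJX1 and DCHS2, the genes with the largest shift in this branch that have a promoter window, since both carry GC boxes. The 200 bases before each RefSeq start (GRCh38.p14) read 5′ to 3′ on the gene's strand, at chr11:35618260-35618459 (plus strand) for FJX1 and chr4:154491800-154491999 (minus strand) for DCHS2, with each GC box (GGGCGG or its reverse complement CCGCCC) in capitals.
FJX1: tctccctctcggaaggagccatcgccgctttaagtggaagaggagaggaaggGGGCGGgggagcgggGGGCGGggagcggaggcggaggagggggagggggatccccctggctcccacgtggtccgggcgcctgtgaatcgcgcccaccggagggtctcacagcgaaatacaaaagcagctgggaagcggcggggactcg
DCHS2: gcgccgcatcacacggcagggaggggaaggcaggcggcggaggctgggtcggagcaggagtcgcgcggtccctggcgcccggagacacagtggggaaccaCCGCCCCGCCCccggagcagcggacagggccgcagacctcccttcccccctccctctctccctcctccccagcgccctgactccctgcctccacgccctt

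FJX1 (ENSG00000179431; chromosome 11, 35618460 to 35620865, GRCh38.p14) had 23.9, 28.6 and 24.0 CPM in the controls against 56.7, 60.7 and 53.7 in the knockout. Each knockout library lay above each control, and control replicate 3 sat among the other controls. The means were 25.5 ± 2.71 and 57.0 ± 3.54 CPM (SD, n = 3 each), 2.24-fold higher in the knockout, with a log2 fold change of 1.16 (SE 0.11, adjusted p = 0.00448, edgeR). FJX1 was the only regulator called in each of the 12 alternative analyses, where its adjusted p ran from 4.08e-14 to 0.048. Without control replicate 3 the log2 fold change was 1.09.

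DCHS2 (ENSG00000197410; chromosome 4, 154231742 to 154491799), a large cadherin that pairs with FAT proteins, had 2.52, 2.66 and 3.38 CPM in the controls against 6.27, 5.71 and 7.22 in the knockout. The groups did not overlap, and control replicate 3 was the highest control. DCHS2 rose from 2.86 ± 0.463 to 6.40 ± 0.766 CPM (SD, n = 3 each), a log2 fold change of 1.16 (SE 0.19, adjusted p = 0.0152, edgeR). The call was kept without control replicate 3 (1.27, 1.08e-08) and lost with any other library left out (0.0587 to 0.0925) and with the replicate block (0.0574). Its partner in name, DCHS1, had 3.70, 3.70 and 4.11 CPM against 4.10, 3.60 and 4.31, and its change did not pass the test (log2 fold change 0.06, SE 0.16, adjusted p = 0.817, edgeR). On a per-length scale (CPM per kb of exon), DCHS2 made up 30.6, 31.8 and 34.8% of the sum of both DCHS genes in the controls against 49.8, 50.6 and 52.0% in the knockout. The shares did not overlap. With 3 libraries against 3 an exact permutation test cannot go below p = 0.1, so shares are given here without a test.

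FAT4 (ENSG00000196159; chromosome 4, 125314955 to 125492932), the closest human relative of fly Fat and a receptor for DCHS1, had 18.0, 14.0 and 9.58 CPM in the controls against 30.3, 27.0 and 37.2 in the knockout. Control replicate 3 was the lowest of the 6 libraries, farther from the knockout than the other controls. FAT4 rose from 13.8 ± 4.19 to 31.5 ± 5.22 CPM (SD, n = 3 each), a log2 fold change of 1.18 (SE 0.25, adjusted p = 0.0278, edgeR). The call was kept without control replicate 1 or 3 and lost without control replicate 2 (0.0939), without any knockout replicate (0.0792 to 0.121) and with the replicate block (0.0831), and without control replicate 3 the log2 fold change was 0.95 (4.41e-07).

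FAT3 (ENSG00000165323; chromosome 11, 92224818 to 92896473), an atypical cadherin known from neurons of the retina, had 15.8, 12.1 and 15.9 CPM in the controls against 22.9, 20.3 and 27.4 in the knockout. The groups did not overlap. FAT3 rose from 14.6 ± 2.15 to 23.5 ± 3.63 CPM (SD, n = 3 each), a log2 fold change of 0.69 (SE 0.17, adjusted p = 0.0422, edgeR). The call was lost without TMM scaling (0.0666), without the filter on low counts (0.0551) with the replicate block (0.0668) and with any library but control replicate 3 left out, over a range of 1.47e-05 to 0.165 across all alternatives.

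FAT1, the most abundant FAT gene per kb of exon, had 110, 93.3 and 76.5 CPM against 126, 110 and 155, and passed the test only without control replicate 3 (log2 fold change 0.48, adjusted p = 0.114 with 6 libraries, 0.33 and 0.0116 without it, edgeR). FAT2 stayed low, at 0.445 to 0.699 CPM in the controls against 0.627 to 0.781 in the knockout (adjusted p = 0.335, edgeR). The FAT genes together came to 8.49, 7.08 and 6.02 CPM per kb in the controls against 10.4, 9.17 and 12.8 in the knockout. Within that sum, FAT4 held 9.95, 9.29 and 7.49% in the controls against 13.7, 13.8 and 13.7% in the knockout, while FAT1 went from 80.1 ± 1.48 to 74.7 ± 0.265% (SD, n = 3 each). The change in summed level thus came with a shift in make-up from FAT1 towards FAT4.

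**Figure D2:**
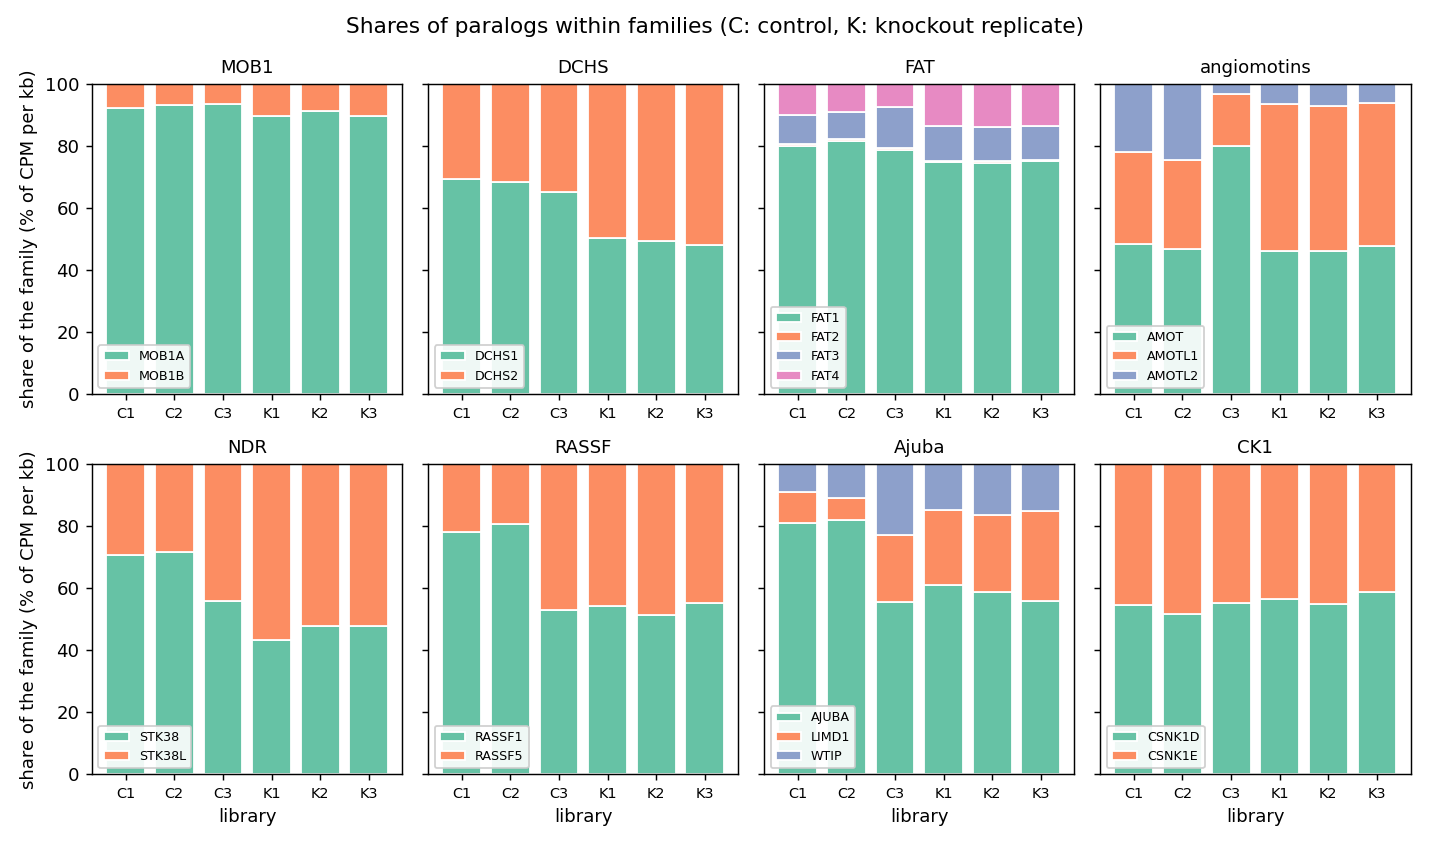
Share of each gene in the summed level of its family (percent of CPM per kb of exon) in each of the 6 libraries, for families of paralogs among the regulators. DCHS2 makes up 49.8% or more of the DCHS sum in the knockout and at most 34.8% in the controls, and control replicate 3 differs from the other controls most in the angiomotins, where AMOT holds 80.0%.

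Angiomotins are scaffold proteins at tight junctions and actin fibres that bind YAP and activate LATS, and AMOTL2 is also a known YAP target gene. They had 1 lower call among 3 genes, and control replicate 3 stood apart from the other controls for AMOT and AMOTL2. AMOTL2 (ENSG00000114019; chromosome 3, 134355345 to 134375417) had 36.3 and 38.1 CPM in control replicates 1 and 2, 10.1 in control replicate 3, and 6.66, 7.49 and 7.21 in the knockout. Control replicate 3 thus lay close to the knockout libraries, yet above each of them. AMOTL2 fell by 1.98 on the log2 scale (SE 0.48, adjusted p = 0.0393, edgeR), from 28.2 ± 15.7 to 7.12 ± 0.421 CPM (SD, n = 3 each). The log2 fold change was -2.42 without control replicate 3, with an adjusted p of 4.37e-16. The call was lost with limma-voom (0.0822), with the replicate block (0.0990) and with any other library left out (0.104 to 0.162).

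AMOT had 105 and 94.6 CPM in control replicates 1 and 2, 316 in control replicate 3, and 62.7, 61.3 and 71.2 in the knockout. Here control replicate 3 went the other way, 3.17-fold above the other controls, so that it was the far end of the range. The log2 fold change was -1.40 (SE 0.47, adjusted p = 0.0909, edgeR) and did not pass the test with 6 libraries. Without control replicate 3 it was -0.65, less than that in size, and passed (adjusted p = 5.75e-07), over a range of 5.75e-07 to 0.254 across the alternatives. AMOTL1 had 68.4 to 77.7 CPM in the controls against 73.6 to 80.4 in the knockout, with a log2 fold change of 0.05 (SE 0.09, adjusted p = 0.732, edgeR). Per kb of exon, the angiomotin sum was 25.5, 23.8 and 46.4 in the controls against 16.0, 15.7 and 17.5 in the knockout. In that sum AMOTL1 held 29.8, 28.6 and 16.7% against 47.5, 46.8 and 45.8%.

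AMOTL2 and AJUBA each have a RefSeq window with the 6-base core of the TEAD element, GGAATG or its reverse complement CATTCC. In both genes that window belongs to a start inside the gene, and the window at the outermost start has no core. The 30 bases around the core are shown because both genes had lower levels in the knockout and in control replicate 3 than in control replicates 1 and 2. They lie at chr3:134374499-134374528 for AMOTL2, where 63 bases lie between the core and a RefSeq start, and at chr14:22976884-22976913 for AJUBA, where 53 do. Both are written 5′ to 3′ on the minus strand of GRCh38.p14, with the core in capitals.
AMOTL2: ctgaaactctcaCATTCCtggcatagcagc
AJUBA: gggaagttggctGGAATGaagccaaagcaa
Promoter windows of 300 bases (250 before the start and 50 after) were present for 39 of 49 regulators, 59 windows in all. The TEAD core stood on either strand in 11 of them (18.6%), in 9 regulators, beside 14.0% of 35116 windows of all genes. The GC box stood in 40 (67.8%), in 33 regulators, beside 45.0% of all windows, and the median number of CG dinucleotides was 27 in windows of the regulators and 14 in windows of all genes. Among regulators with a TEAD core, AMOTL2 and AJUBA were picked by their direction. RASSF5 and FRMD1 were higher in the knockout and in control replicate 3 than in control replicates 1 and 2. PTPN14, RASSF1 and SLMAP were lower in the knockout only, and TAOK3 and WTIP followed neither pattern. The bases shown around the cores of AMOTL2 and AJUBA also occur in annotated transcripts. A match of letters is a description and no evidence of binding.

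Ajuba family LIM proteins bind LATS and hold it at cell junctions. None of the 3 passed edgeR's test with 6 libraries, and DESeq2 called AJUBA. AJUBA had 50.7 and 52.2 CPM in control replicates 1 and 2, 26.2 in control replicate 3, and 25.8, 23.4 and 22.1 in the knockout. Its log2 fold change was -0.86 (SE 0.27, adjusted p = 0.0731, edgeR), and -1.15 without control replicate 3 (4.53e-11), with 4.53e-11 to 0.228 across the alternatives. Control replicate 3 was 1.96-fold below the other controls and just above the knockout. LIMD1 had 13.4, 9.89 and 21.9 CPM against 22.0, 21.4 and 24.7. Its log2 fold change was 0.59 (adjusted p = 0.198, edgeR), and 0.94 without control replicate 3 (1.44e-07), with 1.44e-07 to 0.407 across the alternatives. Its share of the family sum per kb was 9.92, 7.21 and 21.6% in the controls against 24.2, 25 and 29.1% in the knockout. WTIP had 13.1, 15.9 and 25.1 CPM against 14.4, 14.9 and 13.8 (adjusted p = 0.383, edgeR).

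Among the 7 adaptors of the core kinases, MOB1A alone was called by edgeR with 6 libraries, and it fell. DESeq2 and the fit without TMM scaling also called PTPN14. Without control replicate 3 there were 5 calls among the 7, 2 lower (background 33.2%) and 3 higher (background 32.4%). MOB1 proteins bind and activate the LATS and NDR kinases. MOB1A (ENSG00000114978; chromosome 2, 74152528 to 74178879) had 158, 151 and 137 CPM in the controls against 102, 112 and 107 in the knockout. The groups did not overlap, and control replicate 3 was the lowest control. MOB1A fell by 0.47 on the log2 scale (SE 0.09, adjusted p = 0.0234, edgeR), from 148 ± 10.6 to 107 ± 5.32 CPM (SD, n = 3 each). The call was kept without control replicate 3 (1.33e-06) and lost with any other library left out (0.0772 to 0.132) and with the replicate block (0.0818). MOB1B, its near-identical paralog, had 18.3, 15.2 and 13.5 CPM against 16.2, 15 and 16.8, and its log2 fold change of 0.03 (SE 0.15, adjusted p = 0.892, edgeR) did not pass the test. The direction of the MOB1B value turned to -0.08 without TMM scaling and to -0.09 without control replicate 3. Reads from the paralogs may be split between them by the counting. MOB1B also shares 199 exon bases with DCK on the same strand. DCK had 3572 to 3894 counts in the controls against 3737 to 3898 in the knockout. Summed as 1 gene, MOB1A and MOB1B had a log2 fold change of -0.42 (adjusted p = 0.0331, edgeR). MOB1A held 92.9 ± 0.588% of the summed level per kb in the controls against 90.1 ± 0.849% in the knockout (SD, n = 3 each).

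SAV1, the scaffold that joins STK3 and STK4 to LATS, had 23.5 and 22.7 CPM in control replicates 1 and 2, 39.3 in control replicate 3, and 40.2, 41.0 and 39.6 in the knockout. Control replicate 3 lay next to the knockout libraries and just below them. The log2 fold change was 0.50 (SE 0.22, adjusted p = 0.17, edgeR), and 0.77 without control replicate 3 (1.73e-08), with 1.73e-08 to 0.384 across the alternatives. SAV1 shares 1789 exon bases with ATL1 on the opposite strand, and the strand setting of the counting is not given in the sources used here. ATL1 had 1027, 998 and 1552 counts in the controls against 1030 to 1094 in the knockout.

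NF2, the tumour suppressor Merlin that recruits LATS to the membrane, had 51.9, 54.3 and 48.0 CPM against 51.7, 57.6 and 54.9. The groups overlapped, and the log2 fold change was 0.09 (SE 0.09, adjusted p = 0.537, edgeR). FRMD1, a little studied FERM domain relative of FRMD6, was scarce, with 8, 6 and 38 counts in the controls against 50, 50 and 51 in the knockout. It had a log2 fold change of 1.69 (SE 0.66, adjusted p = 0.127, edgeR), and of 2.95 without control replicate 3 (1.23e-07), with 1.23e-07 to 0.288 across the alternatives. Its 6 and 8 counts are the thinnest values among the regulators named here. FRMD6 (adjusted p = 0.218) and the phosphatase gene PTPN14 (log2 fold change -0.47, adjusted p = 0.0602) did not pass edgeR's test with 6 libraries, though their groups did not overlap.

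**Figure D3:**
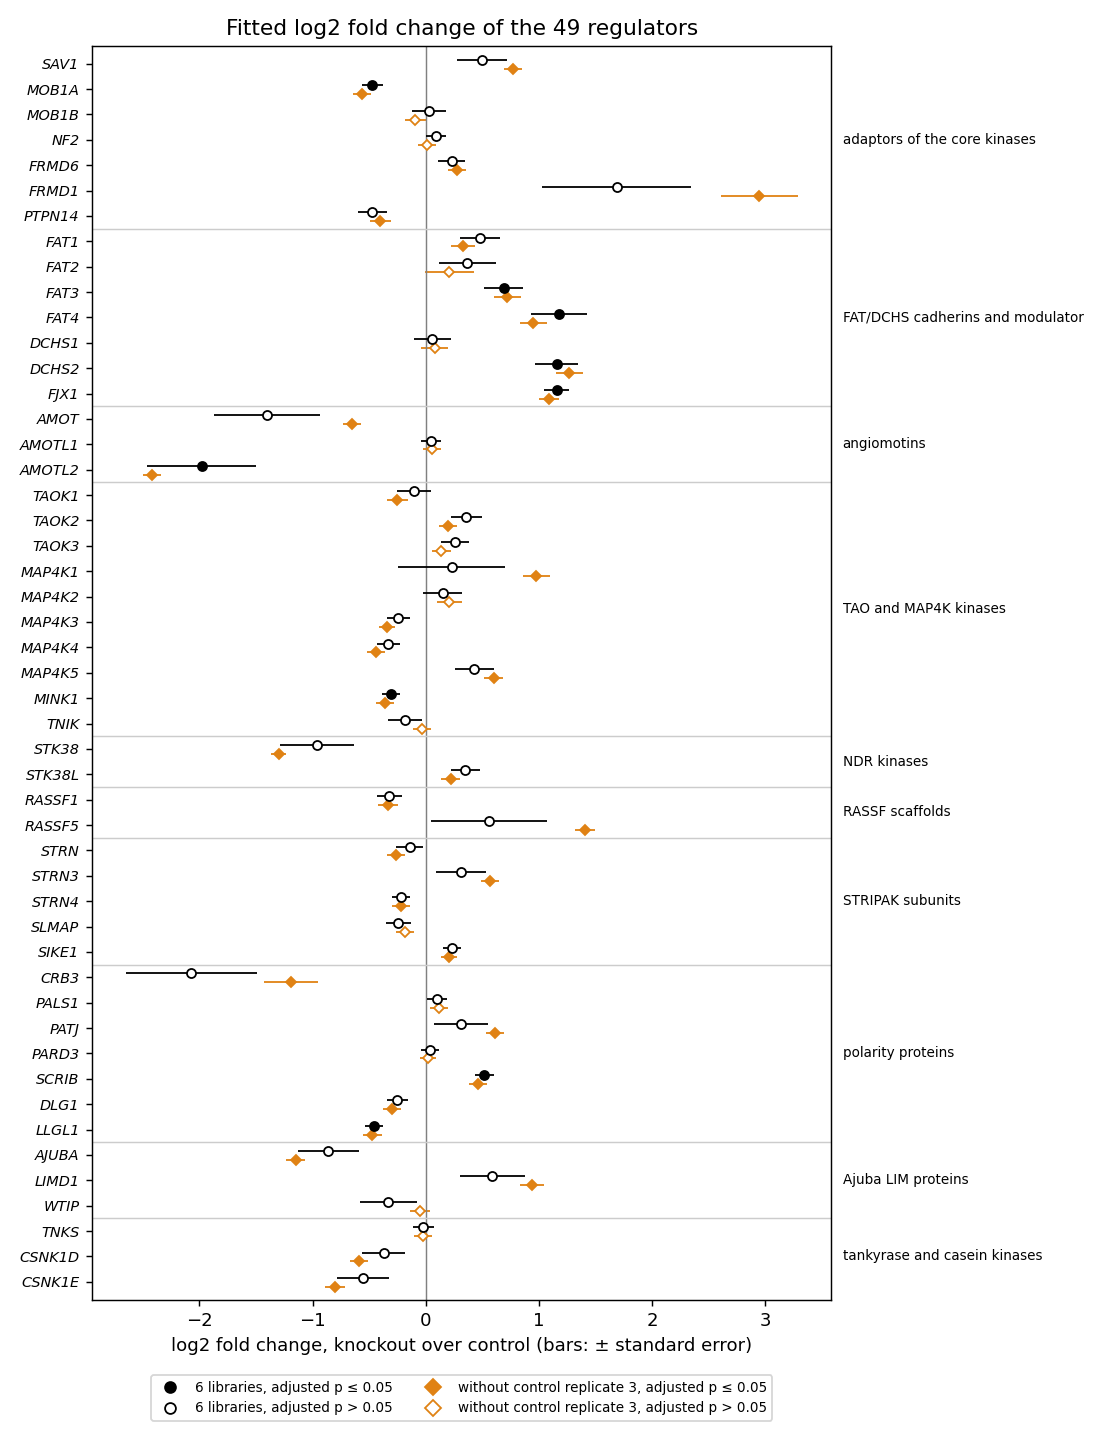
Log2 fold change, knockout over control, with its standard error, of the 49 regulators ordered by role, in the fit of 6 libraries (black) and in the fit without control replicate 3 (orange), filled at an adjusted p of at most 0.05. Values of FJX1 (1.16 and 1.09) are close in both fits, whereas those of AMOT (-1.40 and -0.65), RASSF5 (0.56 and 1.41) and FRMD1 (1.69 and 2.95) move.

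TAO kinases phosphorylate STK3 and STK4, and MAP4K kinases can phosphorylate LATS in their place. Of the 10 genes, MINK1 alone was called by edgeR with 6 libraries. DESeq2 and the fit without TMM scaling also called MAP4K4. Without control replicate 3 there were 7 calls among the 10, 4 lower (background 33.2%) and 3 higher (background 32.4%). MINK1 (ENSG00000141503; chromosome 17, 4833340 to 4898061) had 76.9, 75.7 and 74.6 CPM in the controls against 57.6, 61.0 and 64.1 in the knockout. The controls lay close together, control replicate 3 included. MINK1 fell by 0.31 on the log2 scale (SE 0.08, adjusted p = 0.0488, edgeR), from 75.7 ± 1.15 to 60.9 ± 3.25 CPM (SD, n = 3 each). Its adjusted p was just under the threshold, and it ran from 0.000322 to 0.214 across the alternatives. The call was lost with limma-voom (0.0572), without the filter on low counts (0.131), with the replicate block (0.128) and with any library but control replicate 3 left out (0.127 to 0.214). The other 9 had log2 fold changes from -0.33 for MAP4K4 to 0.43 for MAP4K5, and the median of the 10 was 0.02. MAP4K4 had 170, 157 and 139 CPM against 117, 127 and 126 (adjusted p = 0.0741, edgeR). MAP4K5, which shares 111 exon bases with ATL1 on the opposite strand, had 52.6, 46.8 and 72.4 CPM against 79.7, 75.3 and 75.9 (adjusted p = 0.132, edgeR). MAP4K1, a kinase best known from blood cells, had 2.31 and 2.25 CPM in control replicates 1 and 2, 7.17 in control replicate 3 and 4.36 to 4.90 in the knockout, so that control replicate 3 lay beyond the knockout. Its log2 fold change was 0.23 (adjusted p = 0.764, edgeR), and 0.98 without control replicate 3 (3.78e-07), with 3.78e-07 to 0.962 across the alternatives. TAOK2 had 152, 147 and 110 CPM against 173, 168 and 183 (log2 fold change 0.36, adjusted p = 0.126, edgeR). Without control replicate 3, the lowest control, its log2 fold change was 0.20 (adjusted p = 0.0304, edgeR), with 0.0304 to 0.296 across the alternatives. The share of TAOK2 in the TAO sum per kb was 65.6 ± 1.77% in the controls against 71.5 ± 0.873% in the knockout (SD, n = 3 each).

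NDR kinases are relatives of LATS that also bind MOB1 and can phosphorylate YAP. STK38 had 80.0 and 75.1 CPM in control replicates 1 and 2, 32.1 in control replicate 3, and 31.3, 32.1 and 33.1 in the knockout. Control replicate 3 lay inside the range of the knockout, so the groups overlapped. The log2 fold change was -0.96 (SE 0.33, adjusted p = 0.094, edgeR), and -1.30 without control replicate 3 (2.12e-12), with 2.12e-12 to 0.256 across the alternatives. STK38L had 63.7, 56.5 and 48.6 CPM against 78.6, 66.9 and 68.9 (log2 fold change 0.35, adjusted p = 0.116, edgeR). Per kb of exon, STK38 made up 70.6 and 71.8% of the pair in control replicates 1 and 2, 55.9% in control replicate 3, and 43.3, 47.9 and 47.9% in the knockout.

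RASSF proteins bind STK3 and STK4 through a shared SARAH domain. RASSF5 had 8.66 and 8.30 CPM in control replicates 1 and 2, 30.0 in control replicate 3, and 21.8, 25.2 and 22.1 in the knockout. Control replicate 3 was the highest of the 6 libraries, 3.53-fold above the other controls. The log2 fold change was 0.56 (SE 0.51, adjusted p = 0.48, edgeR), and 1.41 without control replicate 3 (1.69e-11), with 1.69e-11 to 0.794 across the alternatives. RASSF1, a tumour suppressor often silenced by promoter methylation, had 16.2, 18.3 and 18.0 CPM against 13.6, 14.1 and 14.3 (log2 fold change -0.32, adjusted p = 0.102, edgeR).

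Polarity proteins place the Hippo kinases at the apical or the basolateral side of epithelial cells. Of the 7, SCRIB rose and LLGL1 fell, although both belong to the same basolateral Scribble module. SCRIB (ENSG00000180900; chromosome 8, 143790925 to 143815773) had 148, 156 and 146 CPM in the controls against 210, 215 and 219 in the knockout. It rose from 150 ± 5.46 to 215 ± 4.55 CPM (SD, n = 3 each), a log2 fold change of 0.52 (SE 0.08, adjusted p = 0.0127, edgeR). LLGL1 (ENSG00000131899; chromosome 17, 18225635 to 18244875) had 148, 154 and 155 CPM in the controls against 108, 117 and 108 in the knockout. It fell by 0.46 on the log2 scale (SE 0.08, adjusted p = 0.0183, edgeR), from 152 ± 3.56 to 111 ± 5.04 CPM (SD, n = 3 each). For both genes control replicate 3 lay near the other controls, and the groups did not overlap. Both calls were kept without control replicate 3 (1.91e-05 for SCRIB, 1.07e-05 for LLGL1) and lost with any other library left out (0.052 to 0.085 for SCRIB, 0.0541 to 0.118 for LLGL1) and with the replicate block (0.0662 and 0.0735). The third Scribble module gene, DLG1, had 68.9, 61.4 and 62.8 CPM against 55.5, 51.8 and 55.4 and did not pass the test (adjusted p = 0.107, edgeR). Per kb of exon, SCRIB and LLGL1 stood at 22.8 ± 0.830 and 23.2 ± 0.543 in the controls against 32.6 ± 0.691 and 16.9 ± 0.767 in the knockout (SD, n = 3 each). From near-equal levels they thus moved apart. LLGL1 shares 61 exon bases with FLII on the opposite strand, which had 17630 to 18955 counts in the controls against 10679 to 12367 in the knockout.

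CRB3, a small apical membrane protein, was scarce, with 61, 64 and 227 counts in the controls against 27, 24 and 24 in the knockout. Control replicate 3 was the highest library by far, and the groups did not overlap. The log2 fold change was -2.07 (SE 0.58, adjusted p = 0.0562, edgeR), and -1.19 without control replicate 3 (0.000168), with 0.000168 to 0.192 across the alternatives. CRB3 shares 15 exon bases with DENND1C on the opposite strand, which had 57, 58 and 199 counts in the controls against 14, 17 and 16 in the knockout. The counts of these neighbours moved alike, and reads that touch the shared bases cannot be assigned to either gene if the counting ignored strand. The partners of CRB3 and of the PAR complex, PALS1, PATJ and PARD3, had log2 fold changes of 0.10, 0.31 and 0.04 and did not pass edgeR's test with 6 libraries. PATJ had 30.3 and 27.4 CPM in control replicates 1 and 2 and 50.9 in control replicate 3, beside 43.0 to 46.0 in the knockout, and without control replicate 3 its log2 fold change was 0.61 (adjusted p = 8.64e-07, edgeR), with 8.64e-07 to 0.736 across the alternatives.

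STRIPAK is a phosphatase complex that removes the activating phosphate from STK3 and STK4. None of its 5 listed subunits was called by edgeR with 6 libraries, with log2 fold changes from -0.24 for SLMAP to 0.31 for STRN3. DESeq2 called STRN4 and SIKE1, and the fit without TMM scaling called STRN4. Without control replicate 3 STRN, STRN3, STRN4 and SIKE1 were called, beside 65.6% of all genes tested. SIKE1 had 40.0, 38.3 and 39.7 CPM against 46.5, 45.8 and 46.2, without overlap (log2 fold change 0.23, adjusted p = 0.0951, edgeR). STRN3 had 35.7 and 31.6 CPM in control replicates 1 and 2, 56.3 in control replicate 3 and 49.1 to 53.6 in the knockout. Without control replicate 3 its log2 fold change was 0.57 (adjusted p = 2.22e-06, edgeR), with 2.22e-06 to 0.696 across the alternatives. It shares 153 exon bases with COCH on the opposite strand, whose counts were 7201 and 7221 in control replicates 1 and 2, against 16962 to 19338 in the other 4 libraries. STRN4, the most abundant striatin per kb, had 178, 185 and 196 CPM against 159, 166 and 155 (adjusted p = 0.122, edgeR), and STRN had 46.6 to 61.4 CPM against 46.3 to 49.8.

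Tankyrase marks angiomotins for degradation, and the casein kinases complete the phosphate mark by which YAP is degraded. None of the 3 was called by edgeR with 6 libraries. TNKS had 41.0, 37.2 and 41.5 CPM against 39.2, 39.1 and 39.5 (log2 fold change -0.02, adjusted p = 0.888, edgeR). CSNK1D had 331, 358 and 215 CPM against 221, 237 and 242, and CSNK1E had 178, 215 and 113 CPM against 110, 126 and 110. Control replicate 3 lay just below the knockout range for CSNK1D and inside it for CSNK1E. Neither passed with 6 libraries (adjusted p = 0.226 and 0.15, edgeR) and both did without control replicate 3 (log2 fold changes -0.59 and -0.80, 1.31e-06 and 6.66e-08), with up to 0.517 and 0.374 across the alternatives. The split between them stayed close, with CSNK1D at 53.9 ± 1.80% of the pair per kb in the controls against 56.7 ± 1.94% in the knockout (SD, n = 3 each).

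**Figure D4:**
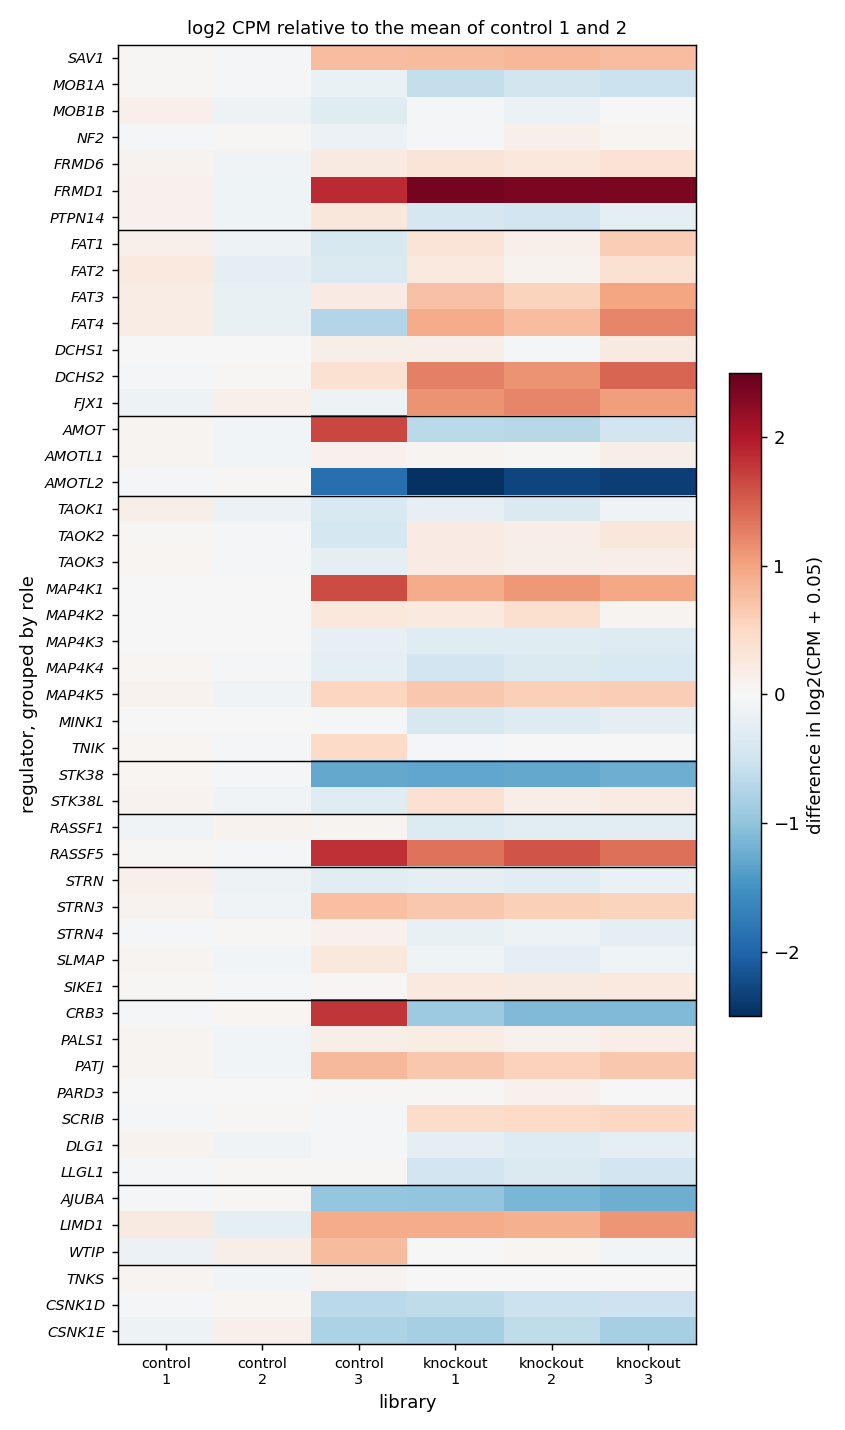
Level of each of the 49 regulators in each library, as log2(CPM + 0.05) relative to the mean of control replicates 1 and 2 (red higher, blue lower), ordered by role. The column of control replicate 3 resembles the knockout columns for SAV1, AMOTL2, STK38 and AJUBA, resembles the other controls for FJX1, SCRIB, LLGL1 and MINK1, and exceeds all other libraries for AMOT and CRB3.

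Compared per kb of exon in the controls, the regulators spanned from 27.4 ± 6.90 for CSNK1D to 0.0201 for FRMD1. The next below CSNK1D were STRN4 (24.4 ± 1.15), CSNK1E (23.7 ± 7.29), LLGL1 (23.2 ± 0.543), MOB1A (23.0 ± 1.65) and SCRIB (22.8 ± 0.830), and neighbours in that order differed by less than the larger of their SDs (n = 3 each). FJX1 stood at 10.6 ± 1.13 in the controls against 23.7 ± 1.47 in the knockout. Next to FRMD1 at the low end was FAT2, at 0.0370 in the controls against 0.0478 in the knockout. Processed pseudogenes of MOB1A, FAT1 and CRB3 were at 0 counts in every library.

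Of 62 other Hippo pathway genes, 61 were tested, and 8 were called lower (background 8.67%) and 4 higher (background 7.96%), with a median log2 fold change of -0.17 beside -0.01 over all genes tested. Without control replicate 3, 29 were called lower and 18 higher, beside backgrounds of 33.2 and 32.4%. By list, 2 of 13 core genes were lower and 0 higher, 1 and 1 of 14 further STRIPAK genes, 2 and 1 of 15 further polarity genes, and 3 and 2 of 19 further regulators. Those called past a log2 fold change of 1 in either direction were WWC3, PARD6A, ZYX and RASSF6. Their calls depended on the analysis. The call held in 5 of 11 alternatives for WWC3, 10 of 12 for PARD6A, 6 of 12 for ZYX and 7 of 12 for RASSF6. Across the alternatives their adjusted p reached 0.181, 0.0789, 0.0983 and 0.102, in the same order. WWC3, a LATS scaffold, had 32.6 and 30.4 CPM in control replicates 1 and 2, 0.352 in control replicate 3 and at most 0.0342 in the knockout. Its log2 fold change was -10.00 (SE 2.01, adjusted p = 0.0239, edgeR). PARD6A, a PAR complex adaptor, had 6.56, 7.5 and 5.63 CPM against 2.42, 2.78 and 2.11 (log2 fold change -1.43, adjusted p = 0.00986, edgeR). ZYX, a focal adhesion LIM protein, had 104, 126 and 59.5 CPM against 24.1, 35.7 and 27.0 (log2 fold change -1.74, adjusted p = 0.0162, edgeR). RASSF6, a relative of RASSF5, had 0.823, 0.489 and 1.16 CPM against 3.23, 2.64 and 2.91 (log2 fold change 1.83, adjusted p = 0.0186, edgeR).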

How the data were processed

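The authors deposited raw counts for each Ensembl gene in 6 libraries, as whole numbers that had not been normalized. The authors' methods describe poly(A) selection, strand-specific libraries and Salmon on hg38, whereas the submitters' processing notes name STAR 2.7.10b, featureCounts 2.0.0 and hg38 and the labels hg19. The annotation release and the strand setting of the counting are not given in the sources used here. Counts were tested with edgeR 4.0.16 in R 4.3.3 (TMM scaling, filterByExpr with a minimum count of 10, quasi-likelihood F-test, two-sided, Benjamini-Hochberg adjustment over 20992 genes, threshold 0.05). Standard errors (SE) of edgeR fits were derived from the test, as the absolute log2 fold change divided by the square root of F. The study names limma, which was an alternative here. The test was checked on simulated data in which all genes had 1 common dispersion, no library stood apart and changes were larger than most here. That check thus says nothing about the effect of control replicate 3. Exon lengths are the union of exons in GENCODE lifted to GRCh37, and promoters are RefSeq windows on GRCh38.p14. A CPM near 0.01 is 1 count at these totals, so depth limits FRMD1, FAT2 and CRB3 most. The members and lists were chosen with earlier results of these data known. Members named with full values had an adjusted p of at most 0.05, or a log2 fold change of 1 or more in either direction with or without control replicate 3, together with MOB1A, MOB1B, NF2 and SAV1. Other pathway genes were named at both thresholds. Alternatives were DESeq2 1.42.0, limma-voom (limma 3.58.1), library size without TMM, no filter, at least 10 counts in every library, each library left out, and a replicate block. The summed level of the blood cell marker list is not reported here.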

Additional observations from a re-analysis of the deposited data

How the results depend on the processing

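Of 49 regulators, 9 were called with 6 libraries (4 lower, 5 higher). DESeq2 called 19 (13 lower) and 5581 genes overall against 3491, and 22 other pathway genes against 12. Library size without TMM called 14 (10 lower, 4 higher) and moved the median log2 fold change of all genes to -0.12, and limma-voom called 2 lower. With 1 library left out, calls ran from 1 to 36 (0 to 18 lower, 1 to 18 higher), those past a log2 fold change of 1 in either direction from 1 to 8, calls over all genes from 167 to 14221, and other pathway genes from 0 to 47. The upper end of each range is the fit without control replicate 3; without any other library at most 2 regulators were called, FJX1 in each and FAT4 without control replicate 1, where 12 to 20 regulators had an unadjusted p under 0.05. With the replicate block, 1 regulator was called, FJX1, which was higher and past a log2 fold change of 1, 0 were lower, and 3 other pathway genes and 407 genes overall were called. DESeq2 and limma-voom each gave 25 regulators with an unadjusted p under 0.05, and the replicate block 19. Deviations from the group mean had correlations of 0.0101, 0.0306 and -0.0362 in same-numbered libraries, beside -0.0841 to 0.0771 in the other pairs. Control replicate 3 weighs heavily on the deviations of all controls. These values therefore cannot tell whether the numbers pair the samples. Directions turned for MOB1B, to -0.08 without TMM and to -0.09 without control replicate 3 (range -0.09 to 0.13 with 1 library left out), and for NF2, to -0.02 without TMM. For single named regulators, 149 values kept their direction and side of the threshold, 52 lost the call, 12 gained it and 3 turned. Causes were not tested.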
